A study of Mus musculus with 8 samples.

Results

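The core circadian clock of mouse brain was read from 10 genes of a bulk RNA sequencing table: Arntl, Clock, Npas2, Per1, Per2, Per3, Cry1, Nr1d1, Nr1d2 and Dbp. They were chosen by name, and all 10 are among the 17613 genes of the table and among the 15902 that passed the filter on low counts. Brain RNA came from C57BL/6 mice, with 4 libraries labelled wild type (WT) and 4 labelled knockout (KO) for Uhrf2, which encodes a ubiquitin ligase that binds modified cytosines. The labels name no further allele, promoter, agent, age or brain region, and no time of day at which tissue was taken. They number the libraries 1 to 4 within each group without saying what a number stands for, or that each library is a separate animal. The p-values below therefore measure the spread between these libraries, which may be technical. In whole tissue, fewer cells of a type and less RNA per cell cannot be told apart.

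Uhrf2 was read first as a check of the labels. It stood at 58.0, 47.7, 57.2 and 58.9 CPM (counts scaled by library size) in the libraries labelled WT and at 86.4, 88.6, 88.4 and 91.8 CPM in those labelled KO. The targeted transcript was thus higher in all 4 libraries labelled KO, which goes against a loss of the RNA, so that "labelled" is kept throughout and every direction rests on the labels. Library totals ran from 11891350 to 19773921 counts, and 3 counts corresponded to at most 0.252 CPM. Markers of neurons summed to between 4489 and 5062 CPM, while Apoa2 of liver and Acta1 of muscle summed to at most 1.10 and 6.62 CPM.

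The clock is a feedback loop of transcription. ARNTL (BMAL1) pairs with CLOCK or NPAS2 and switches on the Per, Cry, Nr1d and Dbp genes through E-boxes, PER and CRY proteins then silence that pair, and NR1D1 and NR1D2 (REV-ERB alpha and beta) repress Arntl through ROR elements. DBP acts on D-boxes and carries the rhythm to output genes. In most mouse tissues Arntl, Npas2, Clock and Cry1 peak between late night and morning, here called the dawn genes, and Nr1d1, Nr1d2, Dbp and the Per genes peak between midday and early night, here called the dusk genes.

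The promoter windows below are those of the 10 genes that hold one of the elements named above, with that of Ciart, a clock repressor outside these 10. Each holds the 250 bases before and 50 bases after a transcription start, from RefSeq on GRCm38.p6, read 5′ to 3′ on the strand of the gene. Windows were found for 9 of the 10 genes, 13 windows in all. Capitals mark an E-box (CACGTG) in Per1, Cry1 and Ciart, an E-prime box (CACGTT, printed as its reverse complement AACGTG) in Cry1 and Nr1d1, D-boxes (TTANGTAA) in Per3 and a ROR element (TAGGTCA) in Arntl.
Per1 (window 1 of 2), chr11:69098699-69098998, plus strand: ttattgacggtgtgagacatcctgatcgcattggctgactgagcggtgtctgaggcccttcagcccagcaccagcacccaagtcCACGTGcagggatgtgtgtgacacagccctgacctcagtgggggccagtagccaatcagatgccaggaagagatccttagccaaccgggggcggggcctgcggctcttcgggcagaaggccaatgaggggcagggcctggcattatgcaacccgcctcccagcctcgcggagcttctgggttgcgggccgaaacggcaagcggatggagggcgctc
Per3, chr4:151044616-151044915, minus strand: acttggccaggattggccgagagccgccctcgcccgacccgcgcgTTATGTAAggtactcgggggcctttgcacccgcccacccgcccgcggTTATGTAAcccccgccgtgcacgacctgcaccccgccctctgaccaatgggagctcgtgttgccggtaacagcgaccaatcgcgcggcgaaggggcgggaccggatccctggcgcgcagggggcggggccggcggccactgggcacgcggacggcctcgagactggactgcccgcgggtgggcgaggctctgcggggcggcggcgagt
Cry1, chr10:85185005-85185304, minus strand: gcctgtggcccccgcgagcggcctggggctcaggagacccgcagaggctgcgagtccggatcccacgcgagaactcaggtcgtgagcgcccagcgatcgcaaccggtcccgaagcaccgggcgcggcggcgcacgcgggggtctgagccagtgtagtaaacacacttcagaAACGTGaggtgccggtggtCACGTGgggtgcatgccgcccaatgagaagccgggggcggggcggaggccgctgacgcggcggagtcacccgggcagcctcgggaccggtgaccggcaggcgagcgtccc
Nr1d1, chr11:98775328-98775627, minus strand: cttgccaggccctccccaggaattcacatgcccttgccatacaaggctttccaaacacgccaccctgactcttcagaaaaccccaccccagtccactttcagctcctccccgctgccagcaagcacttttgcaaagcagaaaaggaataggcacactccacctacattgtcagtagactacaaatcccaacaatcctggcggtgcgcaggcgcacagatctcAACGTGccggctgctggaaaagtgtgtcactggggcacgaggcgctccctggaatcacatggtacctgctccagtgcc
Arntl (window 2 of 2), chr7:113207261-113207560, plus strand: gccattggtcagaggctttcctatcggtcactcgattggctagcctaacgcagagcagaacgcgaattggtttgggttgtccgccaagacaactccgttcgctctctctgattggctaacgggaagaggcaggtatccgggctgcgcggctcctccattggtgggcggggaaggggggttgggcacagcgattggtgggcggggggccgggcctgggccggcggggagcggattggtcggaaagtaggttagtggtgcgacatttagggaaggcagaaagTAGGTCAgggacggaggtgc
Ciart, chr3:95882179-95882478, minus strand: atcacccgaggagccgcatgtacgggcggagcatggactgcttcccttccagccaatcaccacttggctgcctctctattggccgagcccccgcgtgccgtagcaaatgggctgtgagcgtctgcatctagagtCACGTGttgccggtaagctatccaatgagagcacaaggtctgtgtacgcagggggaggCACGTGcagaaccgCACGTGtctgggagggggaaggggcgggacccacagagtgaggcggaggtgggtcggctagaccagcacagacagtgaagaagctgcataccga
Both strands were searched, and no 2 marked matches overlap. Of 32851 promoter windows of the same length, 7.15% hold an E-box, 4.68% an E-prime box, 2.32% a D-box and 6.45% a ROR element (TAGGTCA or TGGGTCA). Among the 9 genes with windows, Per1 (166 bases before the start) and Cry1 (60 before) held an E-box, and Cry1 (79 before) and Nr1d1 (28 before) an E-prime box. Per3 alone held D-boxes, 205 and 158 bases before its start, and Arntl alone a ROR element, 30 bases after the start of its second window. The windows of Clock, Npas2, Nr1d2 and Dbp held none of these and are not printed. The cyclic AMP element TGACGTCA, present in 1.79% of windows, was in none of the 13. Ciart held 3 E-boxes, 116, 58 and 44 bases before its start. It is printed as the window with the most E-boxes among those of 27 further clock genes that were searched. Of these, Sirt1 held 2 E-boxes, and Tef, Bhlhe41 and Ppp1r3c held 1 in each window. These matches describe letters in a short window and do not show binding.

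All 10 genes were well detected, and the largest differences among libraries were in the dusk genes. Per kilobase of the longest coding transcript, Nr1d1 had the highest level in libraries labelled WT (61.8 ± 3.33 CPM per kb, SD, n = 4), followed by Nr1d2 (41.1 ± 3.81), Dbp (33.9 ± 5.46) and Per1 (25.9 ± 7.66). Then came Per3 (12.04 ± 1.02), Arntl (10.6 ± 0.58), Clock (10.1 ± 0.65), Per2 (9.42 ± 3.33), Cry1 (9.25 ± 1.39) and Npas2 (7.07 ± 0.47). In that order Nr1d1 over Nr1d2, Per1 over Per3 and Cry1 over Npas2 differed by more than their summed SDs, and the other neighbours by less. In CPM, the highest library was 2.15 times the lowest for Per1, 2.05 times for Per2 and 2.002 times for Dbp, against 1.19 to 1.37 times for the other 7 genes.

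**Figure D1:**
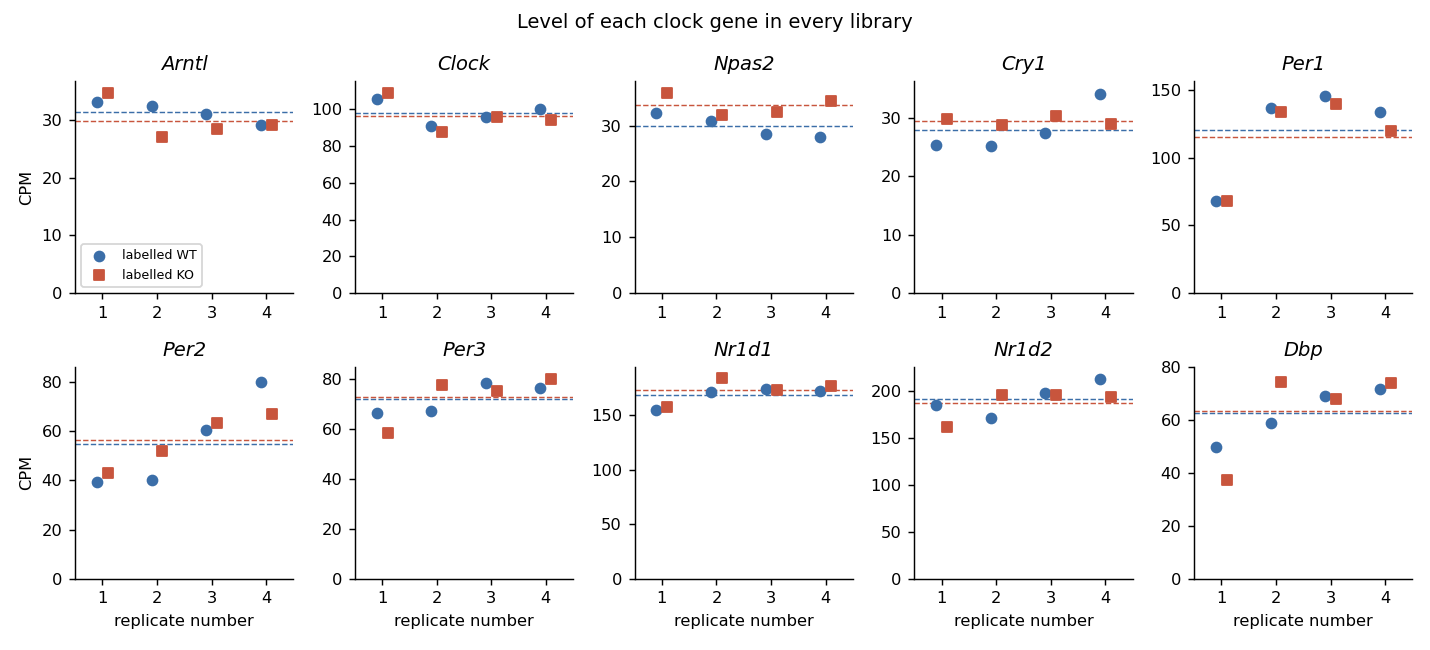
Level of each of the 10 clock genes in every library, in CPM (vertical axis, from 0), against the replicate number of the library (horizontal axis). Circles are libraries labelled WT, squares those labelled KO, and dashed lines the group means. In Per1, the libraries numbered 1 sit at 67.8 and 68.3 CPM and the other 6 between 119.9 and 145 CPM.

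No difference between the labels was detected in any of the 10 clock genes. With edgeR's quasi-likelihood test, 0 of 10 passed a Benjamini-Hochberg adjusted p of 0.05, where 1.43% of all 15902 genes passed (182 higher and 46 lower in libraries labelled KO). At an unadjusted p under 0.05 the count was 1 of 10, Npas2, where 12.6% of all tested genes had such a p. DESeq2 and limma-voom also called 0 of 10 after adjustment. The groups overlapped in all 10 genes, whereas they did not overlap in 7.67% of all tested genes. The median log2 fold change of the 10 was 0.02, beside -0.005 for all genes.

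Among the activators, Arntl stood at 33.0, 32.4, 31.1 and 29.1 CPM in libraries labelled WT 1 to 4 and at 34.6, 27.0, 28.4 and 29.2 CPM in those labelled KO 1 to 4. The group means were 31.4 ± 1.72 and 29.8 ± 3.32 CPM (SD, n = 4), with a log2 fold change of -0.08 (SE 0.07, adjusted p = 0.725). Clock had 106, 90.8, 95.7 and 100.1 CPM in libraries labelled WT and 109, 87.6, 95.7 and 94.4 CPM in those labelled KO, a log2 fold change of -0.02 (SE 0.06, adjusted p = 0.938). For both genes the library labelled KO 1 was the highest of all 8 and that labelled KO 2 the lowest.

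Npas2, the partner of ARNTL that substitutes for CLOCK in forebrain, had the lowest p of the 10 by label. Its levels were 32.3, 30.8, 28.6 and 28.0 CPM in libraries labelled WT and 35.8, 32.0, 32.4 and 34.5 CPM in those labelled KO. It was higher in the library labelled KO of each of the 4 numbers, but the groups overlapped, since WT 1 lay above KO 2. The log2 fold change was 0.17 (SE 0.06), with an unadjusted p of 0.0139 and an adjusted p of 0.238, which misses the threshold. The adjusted p was between 0.13 and 0.493 under all 16 alternatives. Npas2 was also the gene in which label took the largest share of the sum of squares of log2 CPM, 56.4%, beside at most 12.3% in the other 9 and a median of 12.5% over all tested genes.

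The repressors gave no difference by label that exceeded the spread between libraries. Per1, which is also induced rapidly by light and by cyclic AMP signals, averaged 120.9 ± 35.8 CPM in libraries labelled WT and 116 ± 32.6 in those labelled KO (log2 fold change -0.07, SE 0.32, adjusted p = 0.964). Per2, a repressor whose loss shortens and then abolishes the rhythm, averaged 54.9 ± 19.4 and 56.2 ± 10.8 CPM (0.03, SE 0.28, adjusted p = 0.985). Per3, the period gene that the clock can run without, averaged 72.2 ± 6.11 and 72.9 ± 9.78 CPM (0.01, SE 0.09, adjusted p = 0.977). Cry1, a strong repressor of the ARNTL pair, averaged 28.0 ± 4.22 and 29.4 ± 0.69 CPM (0.07, SE 0.08, adjusted p = 0.795). The wide standard errors of Per1 and Per2 come with wide spreads inside both groups.

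The nuclear receptors and the output factor also had overlapping values by label. Nr1d1 had 155, 171, 174 and 172 CPM in libraries labelled WT and 157, 184, 173 and 177 CPM in those labelled KO (log2 fold change 0.04, SE 0.05, adjusted p = 0.821). Nr1d2 had 185, 171, 198 and 212 CPM against 162, 195, 196 and 194 CPM (-0.04, SE 0.07, adjusted p = 0.893). Dbp averaged 62.4 ± 10.03 and 63.2 ± 17.6 CPM (0.02, SE 0.24, adjusted p = 0.989). Exons of Nr1d1 share 263 bases (8.55% of its exon length) with Thra, and those of Dbp share 539 bases (18.0%) with Sphk2, each on the opposite strand. The library kit keeps strand, but for the counting the strand setting is not given in the sources used here. The values of Nr1d1 and Dbp may therefore hold reads of those neighbours.

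**Figure D2:**
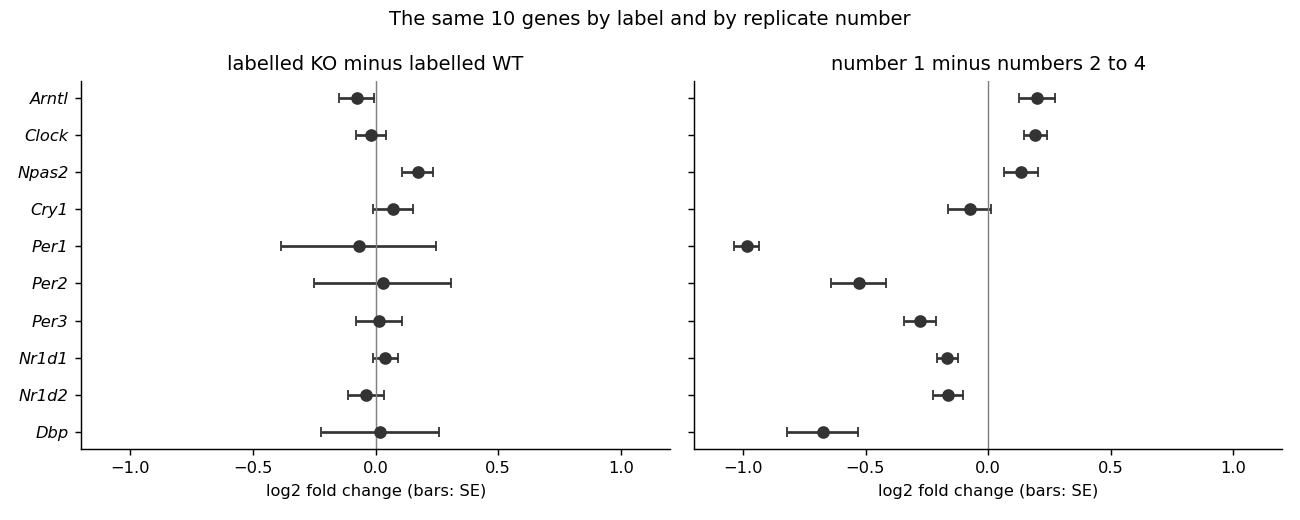
Log2 fold change of each gene, with its SE as a bar, between the labels (left) and between the libraries numbered 1 and those numbered 2 to 4, within groups (right). By label every point lies between -0.08 and 0.17, and by number Per1 lies at -0.99 and Dbp at -0.67.

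In Per1 the libraries differed by replicate number rather than by label. A test of replicate number beside label, with 3 degrees of freedom in the same edgeR framework, was added after the values had been seen. Of 15902 genes, 109 passed (0.685%), and of the 10 clock genes 1 passed, Per1, while 7 of 10 had an unadjusted p under 0.05, as had 2003 of all tested genes (12.6%). Per1 had the lowest p of all tested genes (adjusted p = 2.14e-08). It kept that rank in every alternative but the fit without KO replicate 4, where it was second.

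Per1 stood at 67.8, 137, 145 and 134 CPM in libraries labelled WT 1 to 4 and at 68.3, 134, 140.0 and 119.9 CPM in those labelled KO 1 to 4. The values thus fell into 2 separate clusters, the libraries numbered 1 of both labels and the other 6. Replicate number took 99.1% of the sum of squares of log2 CPM in Per1, and label 0.43%. Within labels, the libraries numbered 1 were at 0.505 times the level of the other numbers (log2 difference -0.99, SE 0.05, adjusted p = 1.53e-09). Over the 14 alternatives that difference ran from -1.03 to -0.94 and passed in each. In 2 of these fits a single library numbered 1 was left, which is assumed to vary like the others, since the spread then comes only from the other 3 numbers.

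Other dusk genes also had low values in the libraries numbered 1. Dbp, whose protein activates D-box genes, stood at 49.9, 58.8, 69.1 and 71.7 CPM in libraries labelled WT and at 37.1, 74.3, 67.7 and 73.7 CPM in those labelled KO. Per2 stood at 39.1, 40.0, 60.6 and 80.0 CPM against 43.0, 51.8, 63.1 and 66.8 CPM, and Per3 at 66.7, 67.3, 78.5 and 76.5 CPM against 58.5, 77.8, 75.3 and 80.0 CPM. In Dbp, Per3 and Nr1d1, as in Per1, both libraries numbered 1 lay below all other 6. In Per2 and Nr1d2 the library labelled WT 2 lay below a library numbered 1, so the ranges overlapped. Of the dawn genes, Arntl and Clock had both libraries numbered 1 above all other 6, and Npas2 and Cry1 overlapped. In all, 6 of 10 genes were separated in this way, 4 below and 2 above, as were 14.1% of all tested genes, 1113 below and 1126 above.

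Each number was compared with the other 3 in turn. For number 1, 251 genes passed (1.58%), among them 3 of the 10 clock genes, Per1, Per3 (-0.28, SE 0.07, adjusted p = 0.0431) and Clock (0.19, SE 0.05, adjusted p = 0.0450). The calls of Per3 and Clock sit close to the threshold: DESeq2 gave adjusted p = 0.171 and 0.287, and called Per2 and Dbp in their place. The count was 1 without WT replicate 3 or without KO replicate 1, in both cases Per1, and 7 without WT replicate 2. The other 7 genes did not pass, at log2 differences of -0.67 for Dbp (SE 0.15, adjusted p = 0.115), -0.53 for Per2 (SE 0.11, 0.0676) and -0.17 for Nr1d1 (SE 0.04, 0.0544). Nr1d2 was at -0.16, Cry1 at -0.08, Npas2 at 0.13 and Arntl at 0.20, with adjusted p of 0.217, 0.727, 0.355 and 0.177.

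Several of these differences depended on which of the libraries numbered 1 was in the fit. Without WT replicate 1 and without KO replicate 1, the difference was -0.95 and -0.41 for Dbp, -0.40 and -0.15 for Per3, -0.26 and -0.06 for Nr1d2, and 0.30 and 0.099 for Arntl. The sign stayed the same in these 4 genes, with the larger difference in the library labelled KO 1. Dbp passed without WT replicate 1, WT replicate 2 or KO replicate 2 (adjusted p = 0.00171, 0.000327 and 0.00226). Per2 passed without WT replicate 2 or 4 or KO replicate 2 or 4, Nr1d1 without WT replicate 2 or KO replicate 3, and Nr1d2 without WT replicate 2.

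The remaining numbers differed less. For number 2, 12 genes passed (0.0755%), and Per1 was the only one of the 10 clock genes, at 0.34 (SE 0.04, adjusted p = 0.00662). For number 3, 4 genes passed (0.0252%), again with Per1 alone of the 10, at 0.44 (SE 0.04, adjusted p = 0.000116). For number 4, 14 genes passed (0.088%) and none of the 10, the nearest by p being Per1 (0.21, SE 0.05, adjusted p = 0.102). Since each number is set against the mean of the other 3, the differences of numbers 2 and 3 in Per1 include the low libraries numbered 1. Per2 had its highest values in both libraries numbered 4, at 80.0 and 66.8 CPM, but its difference of 0.59 for that number did not pass (SE 0.10, adjusted p = 0.125).

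**Figure D3:**
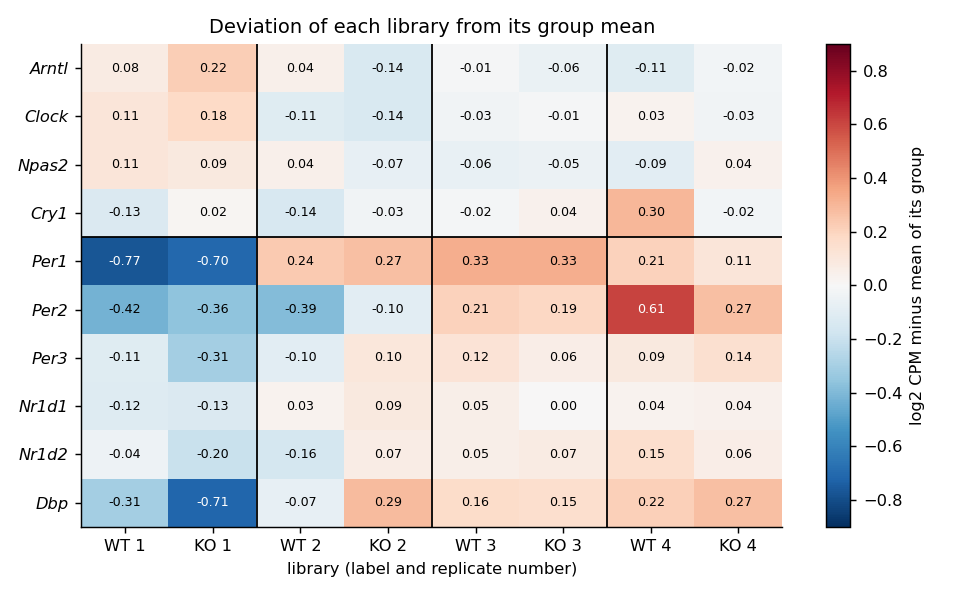
Log2 CPM of each gene in each library minus the mean of its label, with the value printed in each cell, libraries paired by number and dawn genes above the horizontal line. In the libraries numbered 1, WT 1 and KO 1, the 6 dusk genes are negative, from -0.04 to -0.77, and Arntl, Clock and Npas2 positive, from 0.08 to 0.22.

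Across the other genes, replicate number took 92.5% of the sum of squares of log2 CPM in Clock, 88.7% in Per2, 87.4% in Nr1d1, 82.8% in Dbp and 74.9% in Per3. It took 58.2% in Nr1d2, 57.4% in Arntl, 42.2% in Cry1 and 28.7% in Npas2, beside a median of 45.4% over all tested genes. Cry1 and Npas2 were thus the 2 genes below that median. Cry1 had its highest value in the library labelled WT 4, at 34.1 CPM, and otherwise ran from 25.1 to 30.2 CPM.

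Other measures moved with the libraries numbered 1. They were the shallowest of each label, with 11891350 counts (WT) and 13550420 counts (KO). They also had the 2 highest values on the second principal component of all genes, 20.95 and 13.1, beside -9.02 to -2.49 for the other 6, and that component held 19.8% of the variance. The 15 rapid activity genes summed to 487 and 603 CPM in them and to between 572 and 796 CPM in the others. Within that list 3 genes passed the test of replicate number and 7 had an unadjusted p under 0.05, beside 0.685% and 12.6% of all tested genes. Egr2, a transcription factor, was lower in number 1 (-1.30, adjusted p = 0.00428), and Npas4, a transcription factor induced by calcium, was higher (0.79, adjusted p = 0.000136). Dusp1, a phosphatase, did not pass for number 1 (-0.31, adjusted p = 0.0945). Nr4a1 (-1.06), Arc (-0.89) and Egr1 (-0.38) also had both libraries numbered 1 below the others. They did not pass for number 1 (adjusted p = 0.129, 0.224 and 0.165). Fosb, Jun, Btg2 and Egr3 lay above 0 for number 1, at 0.30, 0.09, 0.08 and 0.03, and did not pass either. The part of depth and of activity genes in the differences of the clock genes was not tested.

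The sum of 9 measured suprachiasmatic nucleus markers, the site of the central pacemaker, was 124 to 129 CPM in libraries numbered 1 and 116 to 132 CPM in the others, and 0 of these 9 passed the test of replicate number by edgeR, also at an unadjusted p under 0.05. Six6, Prok2 and Nms of that list were not analysed here. The 2 tested pineal and pituitary markers, Aanat and Pomc, summed to at most 3.34 CPM. None of the genes of the cerebellar, striatal, cortical and hippocampal, choroid plexus, neuronal, oligodendrocyte, microglial, endothelial, liver, muscle and blood lists passed for number or for number 1, with 0 to 2 per list at an unadjusted p under 0.05 for number. Of 5 astrocyte genes, Aqp4 passed for number 1 (0.20, adjusted p = 0.0191). The astrocyte genes summed to 1677 and 1690.1 CPM in the libraries numbered 1, above all other 6 (1457 to 1656 CPM), and their part in the differences of the clock genes was not tested. By label, Drd1a and Ppp1r1b of the striatal list (0.28 and 0.23) and Emx1 and Wfs1 of the cortical and hippocampal list (0.51 and 0.47) were higher in libraries labelled KO. In the other regional and cell type lists 0 genes passed, with 0 to 3 per list at an unadjusted p under 0.05. That was 3 of 5 astrocyte and 3 of 4 endothelial genes, where 12.6% of all tested genes had such a p.

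Lists of genes that follow cues which set the clock were read in the same way. Of 17 glucocorticoid-responsive genes, Fkbp5 (0.46) and Cdkn1a (0.54) were higher in libraries labelled KO, where 1.43% of all tested genes passed by label. By label 6 of the 17 had an unadjusted p under 0.05. For replicate number 0 passed and 5 had such a p, and Klf9 passed for number 1 (0.20, adjusted p = 0.0419). Of 15 genes that follow body temperature, 0 passed by label and 0 by number, with 4 and 5 at an unadjusted p under 0.05. Of all tested genes 12.6% had such a p by label and 12.6% by number, so both lists held more than that share. The lists were not tested as sets. Of the 15 rapid activity genes, Egr3 was higher in libraries labelled KO (1.26). Per1 itself answers to glucocorticoids and to cyclic AMP as well as to the clock. Whether any of these had a part in its difference by number was not tested, and the labels do not say what a number stands for.

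The wider clock list, 36 further genes of the loop and its outputs, showed the same pattern by label. In the edgeR test 0 of 36 passed, with 2 at an unadjusted p under 0.05, a median log2 fold change of 0.01 and 22 of 36 above 0. DESeq2 and limma-voom also called 0. Among the genes with the lowest p were Sirt1, a deacetylase tied to the clock by its NAD requirement (-0.21, adjusted p = 0.200), Arntl2, the second ARNTL gene (-0.31, 0.276), and Bhlhe41, a repressor of the ARNTL pair (0.19, 0.465). With a replicate block Bhlhe41 alone of the 36 passed (adjusted p = 0.0236).

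By replicate number, 3 of 36 wider clock genes passed, beside 0.685% of all tested genes, and all 3 encode repressors of the ARNTL pair. At an unadjusted p under 0.05 the count was 15 of 36, beside 12.6% of all tested genes. Ciart, whose deposited symbol is Gm129, stood at 11.6, 16.7, 19.4 and 20.6 CPM in libraries labelled WT. In those labelled KO it stood at 9.40, 21.4, 20.98 and 19.1 CPM (adjusted p = 0.00782). It was the member of that list with the largest difference of number 1, -0.91 (SE 0.12). Sirt1, whose window holds 2 E-boxes, was at -0.06 for number 1 (adjusted p = 0.769). A link of E-boxes with these differences was not tested. Bhlhe40 (DEC1) stood at 103, 126, 127 and 154 CPM against 111, 127, 148 and 151 CPM (adjusted p = 0.00294), and Bhlhe41 (DEC2) at 55.0, 61.7, 67.2 and 71.4 CPM against 59.8, 75.8, 76.7 and 79.0 CPM (adjusted p = 0.0234). In all 3 genes both libraries numbered 1 lay below the other 6. These 3 were picked by the test of replicate number, so their separation is not further support. The 14.1% of all tested genes that were separated in either direction is no fair measure for them. The count was 0 without KO replicate 1 and 1 without WT replicate 1.

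For number 1 against the others, 6 of 36 wider clock genes passed, beside 1.58% of all tested genes. Besides those 3, Cry2, the second cryptochrome (-0.23, SE 0.04, adjusted p = 0.0116), and Tef, a relative of Dbp (-0.21, SE 0.05, adjusted p = 0.0292), were lower. Nampt, the enzyme of NAD synthesis, was higher (0.21, SE 0.05, adjusted p = 0.0476). The median of the list was 0.01, so these 6 stood beside many genes near 0. Hlf, the third D-box factor of this family, was at -0.06 (adjusted p = 0.627), and Nfil3, the repressor of D-boxes, at 0.05 (adjusted p = 0.859).

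The agreement of the genes across libraries was then measured for all 45 pairs by the correlation of log2 CPM. Because Per1 fell into 2 clusters, its 9 pairs are given only within the 6 libraries not numbered 1. Of the 36 other pairs, 19 were positive and 17 negative. All 10 pairs of dusk genes were positive, with a median Pearson r of 0.82, and 15 of 20 pairs of a dawn with a dusk gene were negative, with a median of -0.50. The points of a pair share library, depth and dissection.

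Of the 45 pairs, 8 passed Benjamini-Hochberg adjustment of the exact two-sided permutation p of Pearson's r, 4 positive and 4 negative, and 0 passed by Spearman's rho. Per3 and Dbp had the highest r, 0.97 (exact permutation p = 0.000446, adjusted p = 0.0145), with rho 0.88 (exact p = 0.00724). Without the libraries labelled WT 1 and KO 1, which were also the 2 farthest from the median of Per3, r was 0.94 (exact p = 0.025, n = 6). In every pair the 2 farthest libraries were taken from 1 gene only, the one that comes first in the opening list. Extreme values of the other gene can therefore remain. Arntl and Dbp had r of -0.87 (exact permutation p = 0.000645, adjusted p = 0.0145) and rho of -0.83 (exact p = 0.0154). Without KO 1 and KO 2, the 2 libraries farthest from the median of Arntl, r was -0.84 (exact p = 0.0167, n = 6). Within the 6 not numbered 1 it was -0.78 (exact p = 0.0611).

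Clock and Nr1d1 had r of -0.90 (exact permutation p = 0.00454, adjusted p = 0.0420) and rho of -0.74 (exact p = 0.0458), and r of -0.68 within the 6 libraries (exact p = 0.156). Arntl and Nr1d1, a gene and its repressor, had r of -0.85 (exact permutation p = 0.00372, adjusted p = 0.0420) and rho of -0.79 (exact p = 0.0279), with r of -0.71 within the 6 (exact p = 0.119) and -0.68 without the 2 farthest (exact p = 0.0611). Nr1d1 and Dbp had r of 0.87 (exact permutation p = 0.00821, adjusted p = 0.0462) and rho of 0.90 (exact p = 0.00456), with r of 0.64 within the 6 (exact p = 0.181). The other 3 pairs were Per3 with Nr1d2 (r 0.87), Per2 with Nr1d2 (0.83) and Arntl with Per3 (-0.85), with adjusted exact permutation p of 0.0420, 0.0462 and 0.0445. Their rho was 0.62, 0.74 and -0.62 (exact p = 0.115, 0.0458 and 0.115), and without the 2 farthest libraries r was 0.76, 0.86 and -0.78 (exact p = 0.156, 0.0556 and 0.0764).

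**Figure D4:**
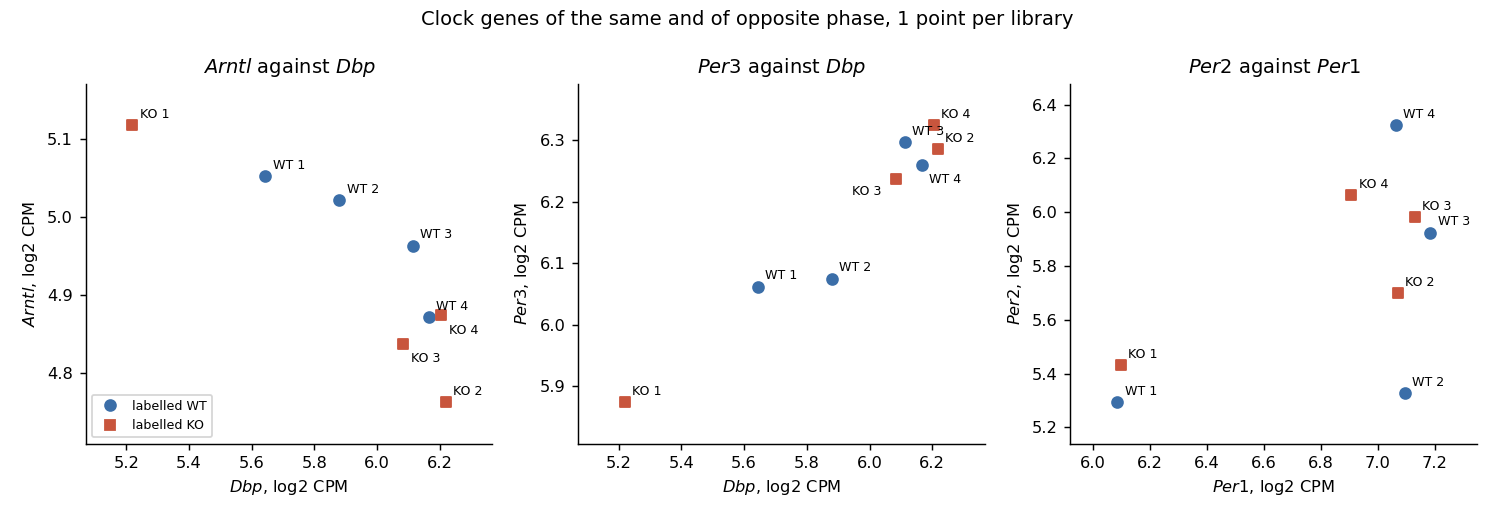
Log2 CPM of 3 pairs of clock genes, 1 point per library, labelled by group and number. Arntl is lower where Dbp is higher, Per3 is higher where Dbp is higher, and in the panel of Per2 against Per1 both libraries numbered 1 sit apart at the left while the other 6 show no common line (r = -0.23, n = 6).

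Less agreement was seen without the libraries numbered 1, where fewer samples also limit the test. Within the other 6, 0 of 45 pairs passed (the lowest exact permutation p was 0.0222, and 3 pairs had an unadjusted p under 0.05). The median r of the 10 dusk pairs was 0.71 within the 6, and that of the 20 dawn with dusk pairs was 0.13 there, of the opposite sign to the value over 8. Per1 correlated with Per2 at r = -0.23 and rho = -0.49 within the 6 (exact permutation p = 0.65 and 0.356), so no positive relation of these 2 period genes was seen there. Before the label means were taken out, the dawn genes did not move as 1 group. Arntl with Clock had r of 0.70 and Arntl with Npas2 of 0.25 over 8 libraries (exact permutation p = 0.0555 and 0.535, adjusted p = 0.119 and 0.588). The latter pair was at -0.36 within the 6 (exact p = 0.504). Cry1 followed Per2 instead, at r = 0.79 over 8 (exact permutation p = 0.0167, adjusted p = 0.0683) and 0.89 within the 6 (exact p = 0.0306), but at 0.49 without the libraries labelled WT 1 and WT 4 (exact p = 0.321).

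**Figure D5:**
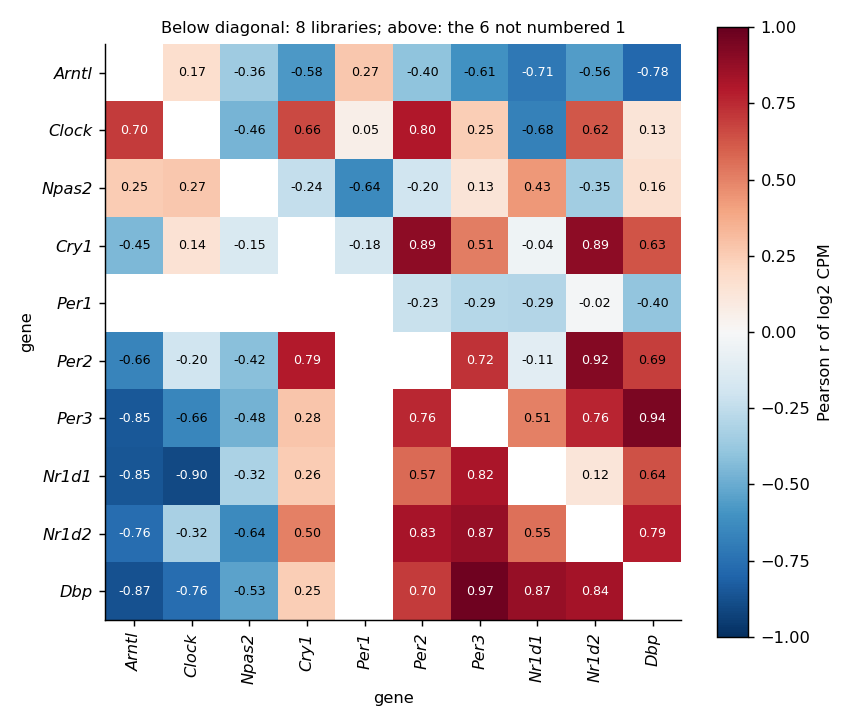
Pearson r of log2 CPM for pairs of clock genes, over 8 libraries below the diagonal and over the 6 libraries not numbered 1 above it. Pairs of Per1 are blank below the diagonal because its values fall into 2 clusters. Per3 with Dbp is at 0.97 and 0.94, and Arntl with Dbp at -0.87 and -0.78.

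Centring the values on their label left the median correlations of the dusk genes and of the dawn with the dusk genes as large or larger. The median r was 0.84 for the 10 dusk pairs and -0.76 for the 20 dawn with dusk pairs, and Arntl with Dbp was at -0.94 (adjusted exact permutation p = 0.0625). No pair passed there. Arntl with Npas2 was at r of 0.84 once centred and had the lowest exact permutation p, 0.00174 (adjusted p = 0.0625). That p is the smallest that the 576 orderings within labels can give. The median r of the 6 dawn pairs was 0.37 centred and 0.20 before, and Arntl with Cry1 stayed negative, at -0.38 centred.

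A summary over the genes was also read per library. The mean log2 CPM of the 6 dusk genes minus that of the 4 dawn genes was 0.95, 1.25, 1.47 and 1.47 in libraries labelled WT 1 to 4 and 0.72, 1.47, 1.41 and 1.41 in those labelled KO 1 to 4. The 2 libraries numbered 1 were the lowest of their label, WT 2 was between, and the other 5 lay within 1.41 to 1.47. By label the means were 1.29 ± 0.25 and 1.25 ± 0.35 (SD, n = 4). Without Per1 the libraries numbered 1 were still the lowest of their label, at 0.99 and 0.74. Dbp minus Arntl was 0.59, 0.86, 1.15 and 1.30 in libraries labelled WT and 0.10, 1.46, 1.25 and 1.33 in those labelled KO, and here too number 1 was lowest in each. No test was made of these differences, which are on the log2 CPM scale. Most of the spread of dusk minus dawn lay in the dusk mean. Its SD was 0.23 in libraries labelled WT and 0.27 in those labelled KO, against 0.04 and 0.09 for the dawn mean. The dawn mean was 5.37 in WT 1 and 5.36 in WT 4, so WT 1 hardly stood out there. In KO 1 it was 5.49, beside at most 5.35 in the others of that label.

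The genes whose deviations from their label mean followed Dbp most closely over the 8 libraries, among 12480 genes with a mean of at least 5 CPM, were Zfp503 (r 0.995), Plekho2 (0.993), Dnmbp (0.989), Ubn2 (0.988) and Vps16 (0.987). Of the 45 other clock genes of both lists, 24 had a positive and 21 a negative r with Dbp (median 0.11), and 8 stood within the first 500 ranks, which hold 4.01% of all genes. Tef stood at rank 7 in that order (0.98), Per3 at rank 13 (0.97), Ciart at 14 (0.97), Bhlhe41 at 41 (0.95), Cry2 at 43 (0.95), Nr1d1 at 141 (0.91) and Nr1d2 at 402 (0.84). Per1, at rank 300, is also counted among the 8, but that rank rests on its 2 clusters. Within the 6 libraries not numbered 1, its r with Dbp was -0.40 (exact permutation p = 0.356). Of the rest of the 45, Bhlhe40 stood at rank 732 (0.78), Per2 at 1142 (0.71), Hlf at 2262 (0.55), Cry1 at 4299 (0.27), Npas2 at 11919 (-0.77) and Clock at 11922 (-0.77). Arntl was near the other end, at rank 12456 (-0.94). The closest to Arntl were Atg7, Tbc1d7, Fam188b, Ccdc3 and Pdlim5, at r of 0.97 each, while Npas2, at rank 182 (0.84), was the 1 clock gene of 45 within the first 500, 9 were within the last 500, and Clock stood at 690 (0.71). Tef was at rank 12479 for Arntl (-0.99). With 8 libraries and 12480 genes, high values arise among many genes, and these ranks are a description, with the limit of 500 set after they were seen. In each label the library numbered 1 deviated most for Dbp, at -0.31 in WT 1 and -0.71 in KO 1. The ranks for Dbp thus repeat in part the difference by number given above and are not separate support. No ranking was made without the libraries numbered 1.

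The 10 genes lie on 7 chromosomes. On GRCm38 (GENCODE M21) the activators are Arntl at chr7:113207465-113314126, Clock at chr5:76209868-76304792 and Npas2 at chr1:39193731-39363236. The period and cryptochrome genes are Per1 at chr11:69095217-69109960, Per2 at chr1:91415982-91459324, Per3 at chr4:151003652-151044665 and Cry1 at chr10:85131700-85185064. The others are Nr1d1 at chr11:98767932-98775333, Nr1d2 at chr14:18204054-18239127 and Dbp at chr7:45705088-45710203. Per3 lies inside the annotated span of Camta1 on the same strand but shares no exon bases with it.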

How the data were processed

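The deposited table holds expected counts, which are estimated read counts per gene with 1 column per library, and 91.5% of values were whole within 0.001. TopHat2 2.0.9, edgeR and GRCm38 (mm10) are named in the submitters' processing notes, and no counting program or strand setting is given in the sources used here. The authors' counts were rounded to whole numbers, filtered by filterByExpr (15902 of 17613 genes kept) and scaled by TMM. Labels were tested by robust quasi-likelihood in edgeR 4.0.16 under R 4.3.3, with label as the only term, and p-values were adjusted by Benjamini-Hochberg over all tested genes at 0.05. Each SE comes from the coefficient and its F statistic. CPM are means ± SD, and log2 CPM used a prior count of 2. Totals of at least 11891350 counts put every clock gene at 301 or more counts in each library. All 12 pairs of libraries of 1 label differed by more than sampling noise (chi-square per degree of freedom 2.43 to 4.91), so none was taken for a repeat deposit of another.

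The 10 genes and all lists were chosen with earlier results of these data known. The naming rule took all 10 genes, list genes past the threshold or with the 4 lowest p, the 5 genes most like Dbp and like Arntl, and Uhrf2; in lists other than the wider clock, mainly genes past the threshold are named. Pairs of genes were tested by exact permutation of 8 libraries. The tests of replicate number, and the fits without both libraries numbered 1, were chosen after seeing the data. On simulated counts the number test also called 26 genes made without a change, and the label test 13, so calls near the threshold are weak. Of 50 genes changed 1.25-fold, the number test recovered 36% and the label test 62%, so small differences can be missed. Alternatives were other size factors and filters, DESeq2 1.42.0, limma-voom (limma 3.58.1), a replicate block and each library left out.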

Additional observations from a re-analysis of the deposited data

Results flagged for a closer look

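Of 20 sets of 4 libraries (each of the 10 clock genes within each label), 3 held a library far from the other 3 of its label by Dixon's criterion, and chance flags about 1 in 20 sets. They were Per1 in the library labelled WT 1, at 67.8 CPM, Nr1d1 in the same library, at 154.6 CPM, and Nr1d2 in the library labelled KO 1, at 161.8 CPM. All 3 are low values of dusk genes in a library numbered 1. The 20 sets share the same 8 libraries and several of the genes move together, so these flags are not independent of each other.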

How the results depend on the processing

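By label, 0 of the 10 clock genes passed under all 16 alternatives, and 139 of their 160 log2 fold changes kept their sign. Leaving out each library in turn gave -0.080 to 0.024 for Clock, -0.25 to 0.11 for Per1, -0.10 to 0.26 for Per2, -0.032 to 0.10 for Per3, -0.089 to 0.024 for Nr1d2 and -0.065 to 0.20 for Dbp, while between 110 (WT replicate 3 left out) and 324 genes (KO replicate 2 left out) passed, 96 to 247 higher and 14 to 77 lower. Dbp was at -0.018 by limma-voom, and without both libraries numbered 1 Nr1d2 was at 0.011 and 18 genes were lower.

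With the replicate block 495 genes passed, 347 higher and 148 lower, among them 0 of the 10 clock genes and 1 of the wider list, Bhlhe41 (0.19, SE 0.04, adjusted p = 0.0236). The block narrowed the SE of the log2 fold change to 0.040 in Per1, 0.090 in Per2 and 0.12 in Dbp, from 0.32, 0.28 and 0.24, at -0.06, 0.06 and 0.008. Deviations of same-numbered libraries over all tested genes correlated at 0.21, 0.077, 0.024 and 0.067, and 3 of 4 libraries labelled WT correlated best with their own number, while WT 3 correlated best with KO 2 (0.11). Not all were over 0.1, so the numbers were not taken to pair the libraries. Over the 10 clock genes alone the same correlations were 0.85, 0.40, 0.95 and 0.65, with WT 4 slightly closer to KO 3 (0.66).

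For replicate number, DESeq2 and limma-voom called 63 genes each, and DESeq2 called 2 clock genes, Per1 and Per2. Leaving out each library gave 23 (without KO replicate 1) to 269 genes (without WT replicate 2), 1 to 5 clock genes, always with Per1, and 0 to 5 of the wider list. For number 1 it gave 1 to 7 clock genes, 0 to 10 of the wider list and -0.18 to 0.023 for Cry1. Of 45 pairs of clock genes, 3 passed without TMM scaling, 0 centred on label, 0 without the 2 farthest libraries, 0 without both numbered 1, and 0 to 5 without 1 library. Arntl with Npas2 was at 0.84 centred on label, -0.071 without the 2 farthest, -0.36 without both numbered 1 and -0.15 to 0.38 without 1 library. Per1 with Per2 was at -0.23 without the 2 farthest and also without both numbered 1. The cause was not tested, except that leaving out libraries leaves fewer samples. Every clock gene had at least 301 counts in each library.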
